A study of Homo sapiens with 2 samples.

Results

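Peaks of HA-tagged ETV6 were examined at the loci of 7 transcription factor genes of the B lineage, PAX5, EBF1, IKZF1, BACH2, TCF3, LEF1 and FOXO1. A peak was counted when its summit fell in the hg19 span of one of these genes or within 20 kb on either side, and 225 of the 315787 listed peaks did so. The rule uses positions only, but these genes were picked with earlier results of these data known. The cells were Reh, an established human line of pre-B acute lymphoblastic leukaemia with the t(12;21) translocation, which fuses ETV6 with RUNX1. They were transduced with a pCCL vector for ETV6-HA, and the control was Reh transduced with pCCL for untagged ETV6. Both arms received 200 ng of virus with 8 µg/mL polybrene, and the medium was changed at 24 h. Both were put through pulldown with anti-HA beads 2 weeks after transduction, so cells of both arms carried added ETV6. Each arm is given as 1 pooled library. The peak list of the tagged pool was used, and no list of the untagged pool was analysed here. Which of the peaks the untagged pool would also give therefore cannot be told, and a listed peak is not by itself a site bound by ETV6. The added, tagged protein was pulled down, so the peaks say nothing of the cells' own ETV6. A peak list cannot show whether a gene is expressed, so the cell type was not checked here against its markers.

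ETV6 belongs to the ETS family, whose members bind DNA around a GGAA core, and it works chiefly as a repressor of transcription. B-cell development is set in motion by a small network of factors. TCF3 (E2A) and FOXO1 act early and help to switch on EBF1, and EBF1 together with PAX5 fixes the B-cell fate. IKZF1 (Ikaros) restrains proliferation of B-cell precursors, LEF1 is a nuclear mediator of Wnt signalling in early B-lineage cells, and BACH2 is a repressor that acts at several B-cell stages. Several of these genes, among them PAX5, EBF1 and IKZF1, are recurrently deleted or mutated in B-cell precursor leukaemia.

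The promoters of these genes are shown first, because none of the 7 gene starts had a peak within 1 kb. The peaks are in hg19 and the sequences are RefSeq's for GRCh38.p14, so they were joined by gene symbol and not by position, and the sequence under the peaks themselves is not shown. For PAX5, BACH2, TCF3 and FOXO1, RefSeq's promoter start is also the outermost 5′ end of the gene. The 250 bases before it are printed 5′ to 3′ on the gene's strand, with each GGAA, or its reverse complement TTCC, in capitals. They lie at chr9:37034269-37034518, chr6:90296844-90297093, chr19:1652616-1652865 and chr13:40666642-40666891 of GRCh38.p14, all on the minus strand.
PAX5: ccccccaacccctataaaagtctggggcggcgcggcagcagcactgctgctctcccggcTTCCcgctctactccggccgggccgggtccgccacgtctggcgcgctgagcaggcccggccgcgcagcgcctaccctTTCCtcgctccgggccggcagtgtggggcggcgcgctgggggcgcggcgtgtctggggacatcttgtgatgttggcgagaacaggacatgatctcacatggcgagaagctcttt
BACH2: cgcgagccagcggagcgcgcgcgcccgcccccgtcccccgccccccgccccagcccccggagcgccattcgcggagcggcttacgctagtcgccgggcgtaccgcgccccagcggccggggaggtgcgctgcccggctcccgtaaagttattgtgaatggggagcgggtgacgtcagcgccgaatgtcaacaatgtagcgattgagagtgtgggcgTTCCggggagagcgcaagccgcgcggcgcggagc
TCF3: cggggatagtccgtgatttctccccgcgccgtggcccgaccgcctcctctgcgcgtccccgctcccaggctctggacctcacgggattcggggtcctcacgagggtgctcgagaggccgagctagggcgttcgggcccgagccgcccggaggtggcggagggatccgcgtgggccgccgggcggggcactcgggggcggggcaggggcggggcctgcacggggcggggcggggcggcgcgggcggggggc
FOXO1: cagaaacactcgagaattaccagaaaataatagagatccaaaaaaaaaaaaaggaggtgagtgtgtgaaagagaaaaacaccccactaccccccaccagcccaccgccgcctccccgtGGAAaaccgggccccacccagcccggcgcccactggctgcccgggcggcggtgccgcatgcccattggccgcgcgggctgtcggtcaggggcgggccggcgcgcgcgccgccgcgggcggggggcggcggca
The TCF3 stretch held 0 matches to GGAA on either strand, BACH2 and FOXO1 held 1 each and PAX5 held 2. Of 35116 RefSeq promoter stretches of the same 250 bases, 92.7% held at least 1. The longer core CGGAAG, which contains GGAA, was in 16.5% of all stretches, GGAAGT in 19.5%, and CCGGAAGT, which contains both, in 3.42%, counting both strands. None of these 3 longer cores was in the 4 stretches printed.

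For EBF1, IKZF1 and LEF1 the promoter start used by RefSeq lay 1960, 1261 and 2631 bases inside the outermost 5′ end of the gene. IKZF1 has 3 entries in the table, and the first was used. Only the 30 bases with the most GGAA or TTCC matches are shown for these. They were picked for their matches, so they cannot be compared with the whole stretches above.
EBF1: ggactcagagtgcGGAAggGGAAgaaGGAA
IKZF1: gGGAAcaatgcgagtgagcaacttcaGGAA
LEF1: gTTCCacaactgGGAAaccctctggaGGAA
The EBF1 piece, from -188 to -159 of the start, held 3 matches, 1 of them within CGGAAG. The IKZF1 piece, from -80 to -51, held 2, and the last of these is continued as GGAAGT in the full stretch. The LEF1 piece, from -207 to -178, held 3. Over the 250 bases EBF1 held 6 matches, LEF1 5 and IKZF1 3. A match is a description of the letters, not a site of binding.

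Peaks were dense over PAX5 and BACH2, raised over IKZF1 against the chromosome as a whole, close to the chromosome's density over EBF1, LEF1 and FOXO1, and fewest over TCF3. The question was whether these loci carried more or fewer peaks than the chromosomes they lie on. PAX5 had 54 peaks where 22.7 were expected from chromosome 9, a ratio of 2.38 (95% interval 1.79 to 3.11). BACH2 had 70 where chromosome 6 gave 41.8, a ratio of 1.67 (1.31 to 2.12), and IKZF1 had 26 where chromosome 7 gave 16.8, a ratio of 1.55 (1.01 to 2.27). EBF1 had 42 peaks with 43.5 expected from chromosome 5, LEF1 13 with 12.8 from chromosome 4, and FOXO1 13 with 12.8 from chromosome 13. Their ratios were 0.97 (0.70 to 1.30), 1.02 (0.54 to 1.74) and 1.02 (0.54 to 1.74). TCF3 had 7 peaks with 12.4 expected from chromosome 19, a ratio of 0.56 whose interval, 0.23 to 1.16, includes 1. Together the 7 loci had 225 peaks in 1659 kb with 162.7 expected, a ratio of 1.38 (1.21 to 1.58). Intervals are exact Poisson intervals of the number of peaks in a locus. They cover counting error only, since 1 pooled library gives no spread between replicates, and no test was made. They also leave out the counting error of the reference.

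The surroundings of these genes were themselves denser in peaks than their chromosomes, except at TCF3. There they had 141.4 peaks per Mb against 149.3 on chromosome 19. When the expected number came from the 2 Mb on each side of a locus, the ratio of the 7 loci together was 0.98 (0.86 to 1.12), on the other side of 1. The neighbourhood of PAX5 had 172.8 peaks per Mb against 94.1 on chromosome 9, and the PAX5 locus itself had 223.9, so its ratio fell to 1.30 (0.97 to 1.69). BACH2 stayed above its surroundings, with 170.6 per Mb against 127.2 and a ratio of 1.34 (1.04 to 1.69). IKZF1 had 154.4 against 120.2, a ratio of 1.28 (0.84 to 1.88). EBF1 changed place: it matched its chromosome but lay below its neighbourhood, with 94.6 per Mb against 161.8 and a ratio of 0.58 (0.42 to 0.79). For TCF3 the ratio was 0.59 (0.24 to 1.22), where the chromosome's end cut the surroundings to 3.31 Mb. LEF1 gave 0.89 (0.47 to 1.52) and FOXO1 0.76 (0.40 to 1.29).

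Windows of the same length laid end to end along each chromosome show how much such counts vary. For PAX5 the 463 windows with any peak had a median of 25 peaks, with the 10th percentile at 8 and the 90th at 57, and 61 of them held at least the 54 of PAX5. For BACH2 the median of 409 windows was 36 and the 90th percentile 79.2, and 57 held at least 70. For IKZF1 200 of 917 windows held at least 26. At TCF3, 143 of 665 windows held at most 7, where the median was 13 and the 10th percentile 5. All 7 loci therefore lay between the 10th and the 90th percentile of their own chromosome's windows.

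**Figure D1:**
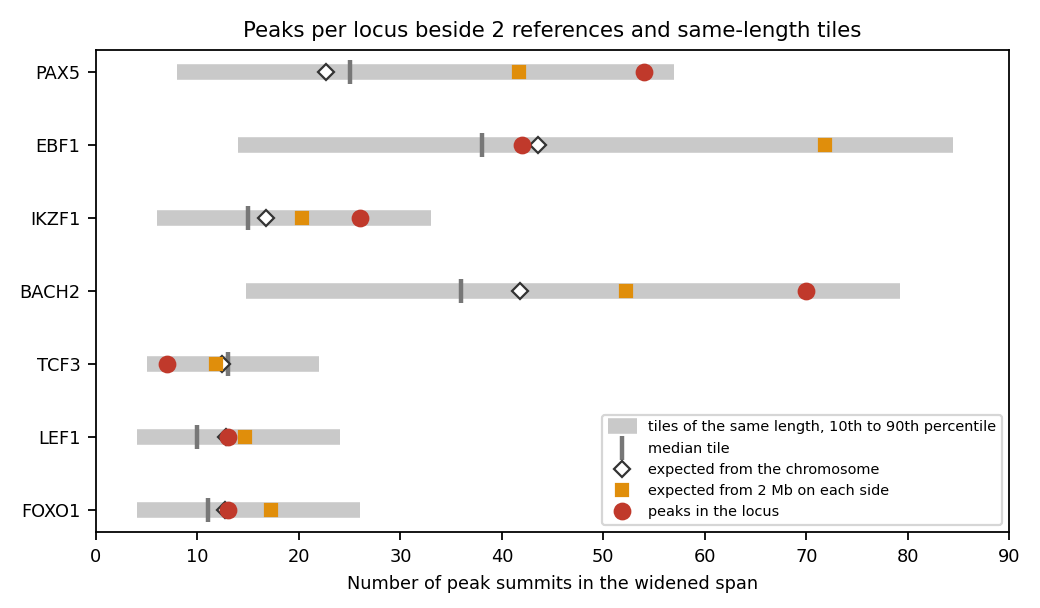
Number of peak summits in each widened gene span (red circles) beside the number expected from its chromosome (open diamonds), the number expected from the 2 Mb on each side (orange squares), and the 10th to 90th percentile (grey bar) and median (grey tick) of same-length windows of the chromosome. PAX5 with 54 and BACH2 with 70 peaks lie near the upper end of their bars and TCF3 with 7 near the lower end, and EBF1 lies below the orange square.

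Among the factors that act first, TCF3 had the sparsest locus. The gene is short, 43.3 kb, and 4 of its 7 peaks lay inside it. The tallest peak of the window was outside the gene, 52.8 kb past the start at chr19:1599779-1599949, with 17 reads at the summit and a fold enrichment of 3.40 over background. In RefSeq's order UQCR11 and MBD3 are the next protein-coding genes on that side. A smaller peak of 13 reads lay 0.905 kb from it, at chr19:1600691-1600749. Inside TCF3 the tallest was chr19:1616612-1616692 with 14 reads, and the nearest to the start was chr19:1647523-1647580, 5.07 kb into the gene, with 13 reads. All but the tallest thus had only 13 or 14 reads, while the lowest pileup anywhere in the list was 12. Pileup here is the number of reads over the summit, recovered from the authors' fold and p-value.

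FOXO1, a forkhead factor needed for early B-cell genes and for recombinase expression, had no peak in the part of the gene next to its start. When the 110.9 kb of the gene were cut into 3 equal parts, the part next to the start held 0 of its 8 peaks, the middle part 5 and the last 3. No summit lay between 14.9 kb before the start and 37.9 kb after it, a stretch of 52.8 kb. Stretches at least this long were not rare on chromosome 13, where there were 263 of them, making up 21.7% of the span. The 3 strongest peaks each had 16 reads and a fold enrichment of 3.22. They were chr13:41149984-41150106 and chr13:41138828-41138956, 90.7 and 101.8 kb into the gene, and chr13:41115842-41115901 beyond its 3′ end. The 4 peaks of the downstream flank lay between 116.3 and 124.9 kb from the start, and the upstream flank had 1, chr13:41255544-41255673 with 15 reads.

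EBF1, the early B-cell factor that opens chromatin at B-lineage genes, had about as many peaks as its chromosome would give but few of at least 16 reads. Only 2 of 42 peaks (4.76%, exact 95% interval 0.58 to 16.2) had at least 16 reads, against 19.4% on chromosome 5, 19.8% over the 7 chromosomes and 21.2% of the whole list. At least 18 reads were reached by 1 of 42 (2.38%, 0.06 to 12.6), where chromosome 5 had 5.32%. At least 20 reads were reached by 0 of 42 (0 to 8.41%), where chromosome 5 had 1.74%. Both intervals include the share of the chromosome, so the difference depended on the limit. The tallest, chr5:158127033-158127174, had 19 reads and a fold enrichment of 3.78. It lay 399.7 kb from the start. The second, chr5:158155094-158155214, had 16 reads and lay 371.7 kb from the start. Both were therefore near the 3′ end of this 403.9 kb gene. No 20 kb of the locus held more than 6 peaks. That number was reached from 374.4 kb on, between the 2 tallest peaks, where none had more than 14 reads. It was also reached in overlapping stretches, among them a stretch that took in the second tallest peak, of 16 reads. Upstream of these overlapping stretches 57.0 kb, from 292.9 to 349.9 kb, had no summit. On chromosome 5, 290 stretches without a summit were at least this long and made up 17.2% of its span. Next by rank, chr5:158106654-158106815, lay past the 3′ end with 15 reads. From the start on, the 3 equal parts of the gene held 9, 13 and 14 peaks.

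PAX5, the factor that holds cells in the B lineage, had the densest peaks of these loci and the most peaks of at least 20 reads. Of its 54 peaks 16 (29.6%, 18 to 43.6) had at least 16 reads, against 19.8% on chromosome 9. At least 20 reads were reached by 5 of the 54 (9.26%, 3.08 to 20.3), where the share was 2.05% on chromosome 9, 2.31% over the 7 chromosomes and 2.66% in the whole list. At least 18 reads were reached by the same 5, where chromosome 9 had 5.36%, inside that interval. The difference from the chromosome therefore depended on the limit. All 5 lay inside the gene. The tallest, chr9:36929102-36929411, had 33 reads and a fold enrichment of 6.43, and lay 105.2 kb from the start, at 52.3% of the gene. Only 54 of the 13264 peaks of chromosome 9 were that tall. It was 310 bp wide, where peaks of 30 to 39 reads at the same background on the 7 chromosomes had a median width of 271 bp (n = 121).

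The other tall peaks of PAX5 were spread over the gene and not gathered around the first. The peak chr9:36989847-36990038, 44.6 kb from the start, had 21 reads and a fold of 4.16. Another 3 had 20 reads and a fold of 3.97: chr9:36963200-36963540 at 71.0 kb, chr9:36909378-36909527 at 125.0 kb and chr9:36885613-36885741 at 148.8 kb. The first of these was 341 bp wide, against a median of 183 bp (90th percentile 276.4, n = 797) for peaks of 20 or 21 reads, while the last was only 129 bp. Of the 5, 3 had another summit within 1 kb: the peak at 44.6 kb one of 15 reads at 0.833 kb, that at 71.0 kb one of 16 reads at 0.547 kb, and that at 148.8 kb one of 17 reads at 0.801 kb. The tallest had its nearest neighbour, of 13 reads, at 2.47 kb. Of all 54 peaks of the locus, 16 had another within 1 kb, and the share over chromosome 9 was not counted.

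Peaks ran through the whole PAX5 window with no long break. The 3 parts of the gene held 11, 13 and 16 peaks, and the longest distance between neighbouring summits was 15.7 kb. On the other 6 loci this distance ranged from 18.5 kb at TCF3 to 57.0 kb at EBF1. The densest 20 kb lay beyond the 3′ end of the gene, where 10 peaks fell between chr9:36814667 and 36832126, although none had more than 16 reads. In RefSeq's order MIR4475, a microRNA gene, and LOC105376030, a long non-coding RNA gene, follow PAX5 on that side. Without the flanks the ratio of PAX5 to its chromosome was 2.11 (1.51 to 2.88). With stretches over 500 kb without peaks taken off chromosome 9, it was 1.87 (1.40 to 2.44).

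IKZF1, the gene for Ikaros, had more peaks towards its 3′ end than near its start. After 5 peaks in the upstream flank and 3 in the first 24.9 kb of the gene, 48.6 kb had no summit, up to 73.6 kb from the start. Chromosome 7 had 375 stretches at least this long, 20.7% of its span. The 3 parts of the gene held 3, 4 and 9 peaks. The peak that ended this break was also the tallest, chr7:50417865-50418022, with 20 reads and a fold enrichment of 3.97. Next came chr7:50457790-50457938, 113.5 kb from the start, with 19 reads. After it came chr7:50484777-50485078, past the 3′ end, with 18 reads and a width of 302 bp. The densest 20 kb, with 8 peaks from 125.3 to 140.5 kb, spanned the 3′ end of the gene. Of 26 peaks 7 (26.9%, 11.6 to 47.8) had at least 16 reads, against 18.9% on chromosome 7, a difference within the interval. The gene alone had a ratio of 1.25 (0.72 to 2.03), and the flanks had 250.0 peaks per Mb against 124.6 inside the gene. The rate of the flanks rests on 5 peaks on each side. The lower bound of the ratio for the whole locus, 1.01, was barely above 1.

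LEF1 had few peaks but the tallest of all 7 loci. The peak chr4:109093440-109093864 had 35 reads and a fold enrichment of 6.81, with −log10 q of 16.2. It was 425 bp wide, the widest of the 225, and above the 90th percentile of 388 bp for peaks of 30 to 39 reads. Its summit lay 3.98 kb upstream of the gene start, and 72 of the 15180 peaks of chromosome 4 were as tall. Another peak, of 15 reads, chr4:109092727-109092881, lay 0.751 kb nearer to the gene. RefSeq places LEF1-AS1, an antisense long non-coding RNA gene, across the 5′ end of LEF1 and beyond it, in GRCh38.p14; whether this hg19 peak lies in it was not checked. The other 12 peaks had 13 to 17 reads. Of these chr4:109074257-109074360, 15.3 kb into the gene, was highest with 17 reads and a fold of 3.40. A stretch of 38.7 kb, from 21.5 to 60.2 kb, had no summit, and 988 stretches at least this long made up 34.2% of chromosome 4. With the LEF1 peak and the central PAX5 peak, 2 of the 225 peaks exceeded 21 reads.

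BACH2 had the most peaks, 70, and none above 19 reads. That height was shared by 3 peaks, with a fold enrichment of 3.78: chr6:90777039-90777269 at 229.5 kb from the start, chr6:90656741-90656912 at 349.8 kb and chr6:90641836-90641988 at 364.7 kb. On chromosome 6, 649 peaks were at least as tall. Within the 370.4 kb gene the 3 parts held 20, 18 and 26 peaks, and the longest distance between neighbours was 21.7 kb. Peaks lay closer together than is usual on the chromosome: the median distance to the nearest summit was 1.65 kb, against 2.54 kb on chromosome 6. IKZF1 had 1.47 kb against 2.55 kb on chromosome 7. At PAX5 the distance was nearly that of chromosome 9, and at EBF1, TCF3, LEF1 and FOXO1 it was longer than on the chromosome. The distances of the loci were taken among the summits of each locus only, and those of the chromosomes among all summits. Peaks near the edge of a locus can therefore seem farther from a neighbour than they are, so the longer distances are not a like comparison. At BACH2 19 of 70 peaks had another within 1 kb, and at PAX5 16 of 54. The share over the chromosome was not counted, and spacing is not independent of density. No 20 kb held more than 8 peaks. That number was reached from 361.3 to 380.8 kb, across the 3′ end, and also in overlapping stretches wholly inside the gene. Of the 70 peaks 18 (25.7%, 16 to 37.6) had at least 16 reads, against 20.5% on chromosome 6. The excess did not come from the flanks, since the gene alone had a ratio of 1.70 (1.31 to 2.17).

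**Figure D2:**
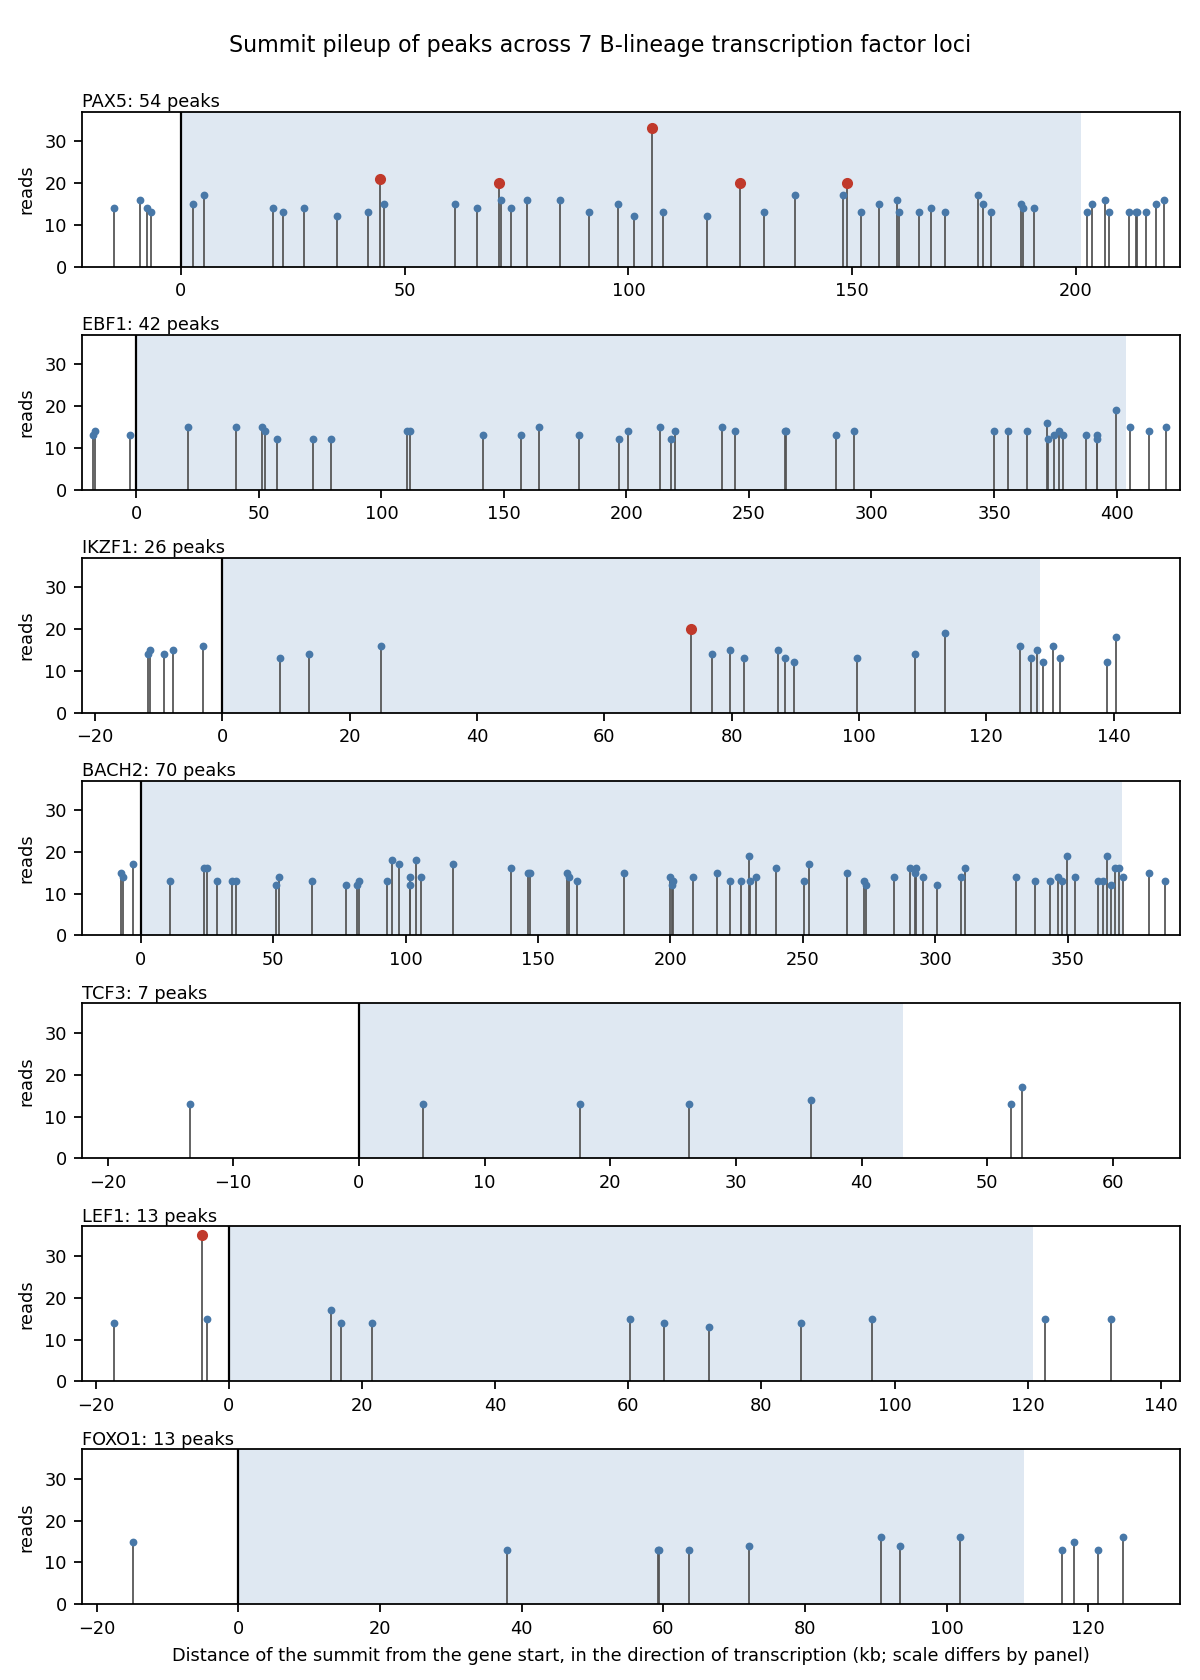
Summit pileup in reads (vertical axis) of each of the 225 peaks against its distance from the gene start in kb, in the direction of transcription, with the gene shaded and the start at 0. Red points have at least 20 reads: 5 in PAX5, 1 in IKZF1 and 1 just upstream of LEF1, and the part of FOXO1 next to the start has no peak.

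No gene start had a peak beside it. Within 1 kb of the start that bounds each span, 0 of 7 genes had a summit, where the chromosome densities gave 1.41 summits over the 7 starts and 16.7% of 2 kb windows on these chromosomes held one. At this density 0 of 7 is not far from the background, so no depletion can be read from it. Within 5 kb, 5 of 7 genes had a summit, beside 53.2% of 10 kb windows. The nearest summits lay 2.77 kb inside PAX5 (15 reads, chr9:37031629-37031721), 2.78 kb upstream of EBF1 (13 reads, chr5:158529529-158529637), 2.81 kb upstream of BACH2 (17 reads, chr6:91009412-91009517), 3.13 kb upstream of IKZF1 (16 reads, chr7:50341218-50341356) and 3.23 kb upstream of LEF1. TCF3 had its nearest at 5.07 kb and FOXO1 at 14.9 kb. Starts of other transcripts, such as those that RefSeq uses for EBF1, IKZF1 and LEF1, were not placed on hg19.

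Densities inside the genes and in the flanks are given as rates only, since no intervals were computed for them. The 7 gene spans together held 176 peaks, or 127.6 per Mb, and the flanks 49, or 175.0 per Mb, of which 20 were upstream and 29 downstream. The flanks were the denser part at PAX5 (350.0 against 198.8 per Mb), EBF1 (150.0 against 89.1), IKZF1, LEF1 (125.0 against 66.2) and FOXO1 (125.0 against 72.1). BACH2, with 150.0 against 172.8, and TCF3, with 75.0 against 92.3, had the denser gene. Several of these rates rest on few peaks. TCF3 had 4 in the gene, 1 upstream and 2 downstream. LEF1 had 8, 3 and 2, and FOXO1 8, 1 and 4. The flanks of PAX5 alone held 4 upstream and 10 downstream. Whether the gene and the flanks of a locus differed beyond counting error was not tested. Of the 3 equal parts of each gene, those next to the start held 47 peaks in all, the middle parts 58 and the last parts 71. At EBF1, IKZF1, PAX5 and BACH2 the last part held the most.

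In strength the peaks of these loci were close to those of the list, apart from PAX5 at the limit of 20 reads and EBF1 at that of 16. The median summit had 14 reads and a fold enrichment of 2.84 in the loci, over the 7 chromosomes and in the whole list, and the median width was 99, 97 and 99 bp. At least 16 reads were reached by 49 of 225 (21.8%, 16.6 to 27.7), and the same 21.8% had q of at most 0.01, where the 7 chromosomes had 19.4%. At least 20 reads were reached by 7 of 225 (3.11%, 1.26 to 6.30), an interval that includes the 2.31% of the 7 chromosomes and the 2.66% of the whole list. Of these 7 peaks 5 were in PAX5, and without that gene the share was 2 of 171 (1.17%). A background above the level of 4.29 reads that 95.8% of all peaks share was found at 5 of 225 peaks (2.22%, 0.73 to 5.11), against 3.62% over the 7 chromosomes. None of the named peaks was among these 5, and all peaks of at least 20 reads had the shared background.

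**Figure D3:**
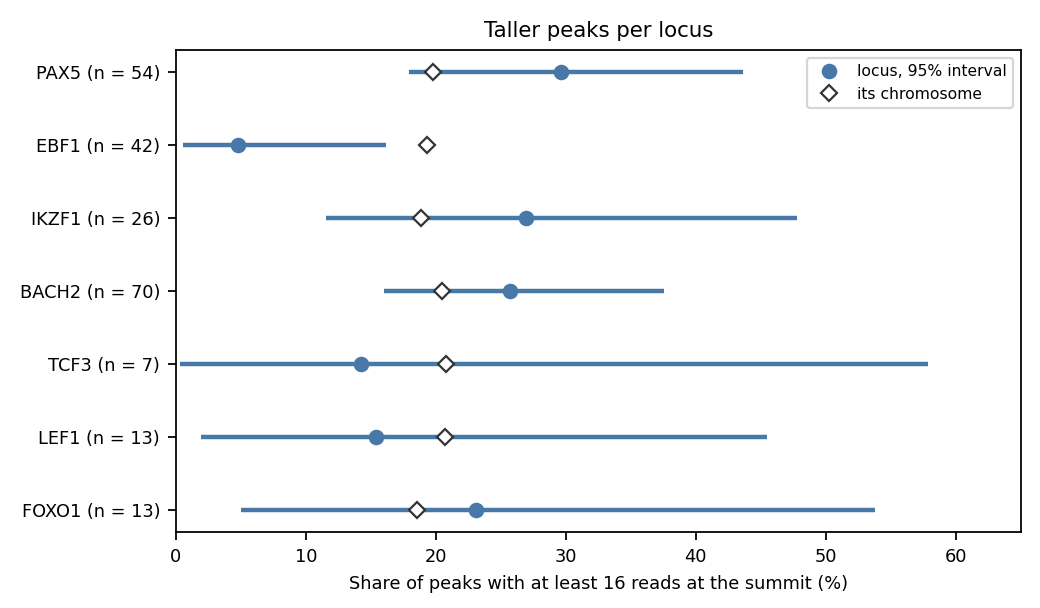
Share of peaks with at least 16 reads at the summit, in percent, for each locus (blue circle with exact 95% interval) and its chromosome (open diamond). The interval of EBF1, from 0.58 to 16.2%, lies below the 19.4% of chromosome 5, and those of the other 6 loci include the value of their chromosome.

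Among peaks with q of at most 0.01 the ratios of PAX5, BACH2 and IKZF1 were higher and that of EBF1 lower than among all peaks, from 2 to 18 peaks each. In the share of peaks with at least 16 reads, only EBF1 differed from its chromosome by more than the counting interval. The limits of 16 reads and of q picked the same 49 peaks in these loci, so these are not separate observations. At that q, PAX5 had 16 peaks and a ratio to its chromosome of 3.62 (2.07 to 5.87), BACH2 18 and 2.16 (1.28 to 3.41), and IKZF1 7 and 2.24 (0.90 to 4.63). EBF1 had 2 peaks and a ratio of 0.24 (0.03 to 0.87). The intervals of PAX5, BACH2 and IKZF1 at that q include their ratios over all peaks, and that of EBF1 does not. TCF3 had 1, LEF1 2 and FOXO1 3, too few to place them above or below 1. For the 7 loci together the ratio was 1.55 (1.15 to 2.05). Leaving out PAX5 brought the ratio over all peaks to 1.22 (1.04 to 1.42).

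**Figure D4:**
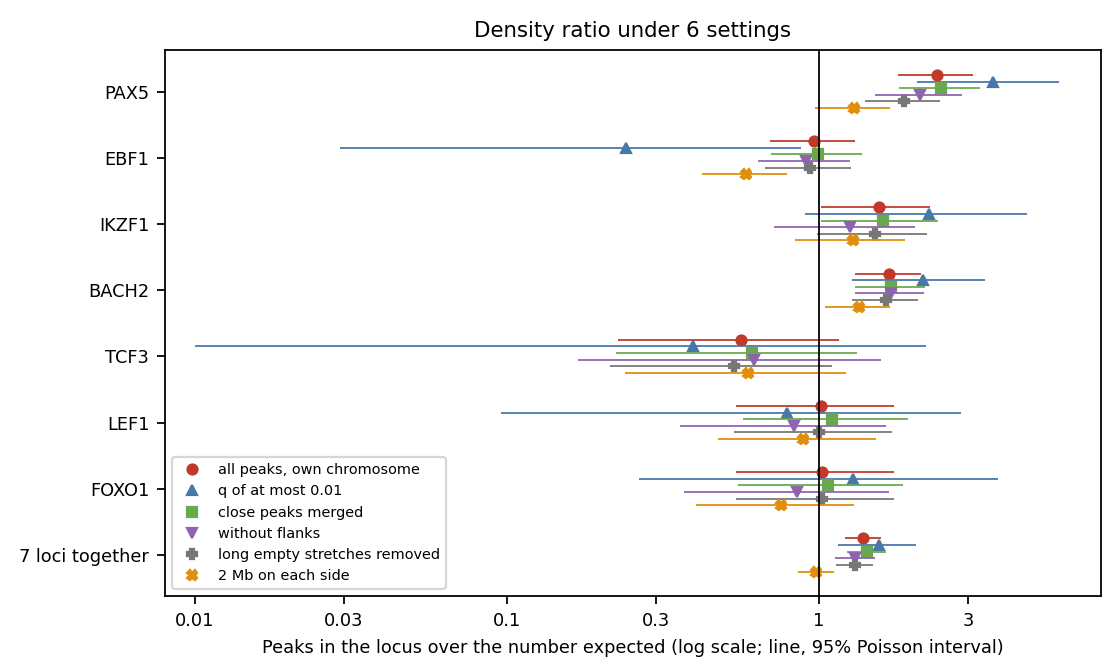
Number of peaks in each locus over the number expected (log scale, with 95% Poisson intervals) under 6 settings, the line at 1 marking equality. PAX5, BACH2 and IKZF1 lie right of the line in all 6, the 7 loci together cross to 0.98 with the 2 Mb on each side as reference, and EBF1 lies at 0.24 among peaks with q of at most 0.01.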

How the data were processed

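Reh cells received 200 ng of virus with 8 µg/mL polybrene, per the labels' protocols. Samples were grouped by transduction label, 1 pooled library per arm. The submitters' processing notes name build hg19, MACS2 2.1.1.20160309 and Bowtie2 2.2.3. No source used here states their settings or the control. The authors deposited 1 narrowPeak list, and its lowest −log10 q, 1.01, shows a q threshold of 0.1. The deposited fold is read as a ratio to local background, and the deposited −log10 columns as p-value and q-value of the summit. The deposited score is the whole part of 10 times −log10 q and was not used. The other deposited columns hold start, end and summit. Library totals were not used, so depth is given as reads per summit.

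Pileup was solved from fold = (pileup + 1)/(background + 1) and the Poisson tail for p. It came out whole within 0.05 for 99.9997% of peaks, and on simulated peaks 100% of 19985 were recovered. Expected numbers used peaks per Mb between the first and last peak of a chromosome. Shares have Clopper-Pearson intervals. Gene spans came with the choice of members, the gene start is their end on the strand RefSeq gives, and all 7 genes matched RefSeq's table by symbol. No hg19 annotation was used, so exons and introns were not assigned. The members and lists were chosen with earlier results of these data known. Peaks are named when they are the 3 strongest of a locus by q, have at least 20 reads or lie nearest the start. Promoters were to be shown for genes with a summit within 1 kb. None qualified, so those shown, and the motifs, were chosen after that was seen. Alternatives were other thresholds, flanks, references and merging. The work was done in Python 3.11.15 with scipy 1.17.1, numpy 2.4.6 and pandas 2.3.3, and figures were drawn with matplotlib 3.10.9.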

Additional observations from a re-analysis of the deposited data

How the results depend on the processing

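Of 69 alternatives, 59 left a value within the interval of the main one, 9 moved it outside, and 1 turned a ratio whose interval lay above 1 to below it. That was the ratio of the 7 loci together, 1.38 against the chromosomes and 0.98 against the 2 Mb on each side. LEF1 and FOXO1, both at 1.02 with intervals around 1, also crossed 1: LEF1 to 0.79 with q of at most 0.01, 0.76 with at least 16 reads, 0.83 without flanks and 0.89 against the 2 Mb, and FOXO1 to 0.85 without flanks and 0.76 against the 2 Mb. With that reference PAX5 moved from 2.38 to 1.30 and EBF1 from 0.97 to 0.58. With q of at most 0.01, PAX5 moved to 3.62, EBF1 to 0.24 and BACH2 to 2.16. With at least 16 reads, a limit added after the data were seen, PAX5 moved to 3.56 and EBF1 to 0.24. Both limits picked the same 49 peaks in the loci, so they are not independent, although each was counted among the 69. The share of peaks with at least 20 reads, 3.11%, became 21.8% at 16 reads, and the number of genes with a summit near the start went from 0 within 1 kb to 5 within 5 kb, both by construction. The causes of the other shifts were not tested. Leaving out each locus in turn, also added later, gave ratios for the rest of 1.22 (without PAX5) to 1.53 (without EBF1). The interval of IKZF1, whose lower bound was 1.01, included 1 under 5 of 7 alternatives, all but merging and overlap. With 7 to 13 peaks, TCF3, LEF1 and FOXO1 could not be placed on either side of 1. No paired analysis was possible because there was 1 pooled list, and no replicate could be left out.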
